A study of Mus musculus with 48 samples.

Results

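Chromatin accessibility at the genes of cytosolic ribosomal proteins was followed through 48 ATAC-seq libraries of tumour-infiltrating CD8 T cells. In ATAC-seq the Tn5 transposase cuts open chromatin, and the reads in a peak measure how open that stretch is. A peak was taken when it overlapped the body of a protein-coding gene named Rpl or Rps with a number, or Rplp0, Rplp1, Rplp2 or Rpsa; a peak touching several genes went to the gene whose boundary lay nearest its middle. By this rule 83 of 53868 peaks belonged to 73 of the 81 matching genes. Rpl10l and Rpl32l touched no peak, and the peaks touching Rpl3l, Rpl4, Rpl7a, Rplp2, Rps18 and Rps25 went to a neighbouring gene. Peaks numbered 33 for the small 40S subunit (29 genes) and 50 for the large 60S subunit (44 genes). A single peak was found for 65 genes, 2 peaks for 6 genes, and 3 peaks for Rpl12 and for Rps15a. A further gene overlapped 12 of the peaks (among them Rpl12, Rpl35a, Rpl36, Rpl41, Rps27, Rps27a and Rps28), and accessibility cannot be divided between such genes.

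The cells were CD45.1 OT-1 CD8 T cells expressing Cas9 (OT-1 cells recognise a peptide of ovalbumin), and carried a lentiviral guide with an ametrine reporter. Young and aged hosts received them 1 day before B16-OVA, a mouse melanoma line that expresses ovalbumin, and they were sorted from the tumours on day 15. Guides were OTC, used here as the control, Zfp219 and Dusp5, the latter 2 given in the labels as knockouts. The sort took Tprog as positive for Slamf6 and negative for Tim-3, Ttran as positive for both, Tterm as positive for Tim-3 alone and Ttad as negative for both. The letters A and Y of the labels were read as aged and young hosts; the ages themselves were not given in the sources used here. Aged hosts gave 12 groups of 2 libraries, 1 for each guide in each of the 4 states. Young hosts gave 9 groups without Ttad, with 2 libraries each in Tprog and 3 each in Ttran and Tterm. Every group therefore shares Cas9, the OT-1 receptor, the viral vector and the tumour, and replicates are pools of cells from independent mice. All coordinates are mm10.

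Ribosomal proteins assemble with ribosomal RNA into the 40S subunit, which reads the messenger RNA, and the 60S subunit, which joins amino acids. Their genes are housekeeping genes with strongly open promoters, and many begin transcription at a C followed by a run of pyrimidines, the start of the 5′ terminal oligopyrimidine (TOP) motif through which mTOR and LARP1 regulate translation. Activated T cells raise ribosome production as they grow. The ETS family motif CCGGAAG, the YY1 motif AAGATGG, the Sp1 GC box GGGCGG and a palindromic element around CGCG, called the CGCG palindrome here, are known in promoters of this kind.

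The label of promoter peaks was checked against annotated start sites. The RefSeq promoter table (GRCm38.p6, 250 bases before and 50 after each start) held 73 promoters of 61 of the 81 genes. A start of its own gene lay inside 51 of the 83 peaks, and 11 peaks of 9 genes lay away from it. The remaining 21 peaks of 20 genes had no start in the table, and 19 of them held a boundary of a gene. The 11 peaks away from the start are mostly described separately, because promoter is not a fitting word for them. Motifs were counted on both strands of the 300-base promoters, as a description. CCGGAAG was in 35.6% of the 73, against 8.86% of all 32851 promoters in the table. GGGCGG was in 57.5% against 35.7%, AAGATGG in 15.1% against 6.34%, CCAAT in 30.1% against 37.4% and TATAAA in 9.59% against 13.6%. The CGCG palindrome, which reads the same on both strands, was in 7 of the 73 (9.59% against 0.466%). A C at the annotated start followed by at least 4 pyrimidines was in 14 of the 73 (19.2% against 2.51%).

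The first 4 sequences show 110 bases before and 12 bases from the start for 4 genes among the largest rises with Zfp219 guides in aged hosts that have a start in the table (Rps4x chrX:102189380-102189501, minus strand; Rps6 chr4:86857356-86857477, minus strand; Rpl26 chr11:68901456-68901577, plus strand; Rps15a chr7:118116136-118116257, minus strand). Capitals mark the ETS, YY1, Sp1 and CGCG motifs on either strand, and all sequences are from RefSeq, GRCm38.p6, 5′ to 3′ on the gene's strand.
Rps4x: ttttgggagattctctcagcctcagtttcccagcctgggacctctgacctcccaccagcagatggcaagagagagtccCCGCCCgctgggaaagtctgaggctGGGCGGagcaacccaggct
Rps6: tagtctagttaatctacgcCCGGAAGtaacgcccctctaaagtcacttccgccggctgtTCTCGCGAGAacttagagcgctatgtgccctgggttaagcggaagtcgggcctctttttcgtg
Rpl26: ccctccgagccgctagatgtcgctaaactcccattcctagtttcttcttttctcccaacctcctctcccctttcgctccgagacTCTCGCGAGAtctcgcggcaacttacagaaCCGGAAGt
Rps15a: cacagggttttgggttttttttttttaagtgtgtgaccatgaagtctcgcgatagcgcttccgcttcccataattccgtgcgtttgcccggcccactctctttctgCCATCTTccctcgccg

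The palindrome also stood in Rps28 (chr17:33824534-33824583, minus strand), Rpl10a (chr17:28328514-28328563, plus strand), Rpl12 (chr2:32961638-32961687, plus strand) and Rps19 (chr7:24884564-24884613, plus strand). These are shown because it is the rarest of the motifs searched in all promoters, and capitals mark it.
Rps28: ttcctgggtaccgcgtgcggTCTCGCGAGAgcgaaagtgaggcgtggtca
Rpl10a: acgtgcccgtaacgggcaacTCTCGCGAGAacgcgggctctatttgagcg
Rpl12: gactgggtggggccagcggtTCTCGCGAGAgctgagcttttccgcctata
Rps19: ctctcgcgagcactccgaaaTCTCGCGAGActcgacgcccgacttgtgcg

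Pyrimidine starts are shown for the 5 genes of that kind whose start peak was called higher with Zfp219 guides in aged hosts, and for Rpl35a, which was higher in aged control cells. Each line runs from 10 bases before the start to 20 bases from it, with the tract in capitals (Rps6 chr4:86857348-86857377, minus strand; Rps27 chr3:90213629-90213658, minus strand; Rps15a chr7:118116128-118116157, minus strand; Rps10 chr17:27635225-27635254, minus strand; Rpl28 chr7:4792955-4792984, plus strand; Rpl35a chr16:33056472-33056501, plus strand).
Rps6: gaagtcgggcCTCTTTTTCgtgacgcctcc
Rps27: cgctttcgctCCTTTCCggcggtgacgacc
Rps15a: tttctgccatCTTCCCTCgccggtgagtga
Rps10: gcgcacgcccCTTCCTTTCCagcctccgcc
Rpl28: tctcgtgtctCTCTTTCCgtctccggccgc
Rpl35a: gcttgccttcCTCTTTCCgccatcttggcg

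Values are reads in a peak divided by the library's size factor, called normalized reads below. Reads in peaks ran from 5638413 to 29942755 per library, with a median of 14691505. Column names number the libraries of each age separately, so any such sequencing set cannot be told apart from age. Peaks of the CD8 T cell genes Cd8a, Cd8b1, Cd3d, Cd3e, Cd3g, Cd2 and Thy1 had reads in every library, with a summed level of 7429 to 13012. The sum includes a Thy1 peak that ran from 117 to 4884 (median 304), and a weak Cd3e peak from 7.97 to 55.4. It is therefore no even measure of these genes. Of the other lists, 3 of 7 melanoma genes had a peak (summed 719.5 to 1406), 2 of 5 myeloid genes (648 to 1002), 1 of 4 B cell genes (279.9 to 672) 1 of 2 NK genes (0 to 33.1) and 2 of 3 CD4 T cell genes (907 to 1619.8); Foxp3, Tyr, Dct, Tyrp1, Sox10, Csf1r, Lyz2, Adgre1, Ms4a1, Cd79a and Ncr1 had no peak. Guide cutting itself was not measured here.

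Ribosomal protein gene peaks were strong and varied little. Every peak had reads in every library, at least 10. Mean levels over the 48 libraries ran from 29.8 to 1898 normalized reads with a median of 513, the 85.0th percentile of all peaks. The median width was 1453 bp against 899 bp for all peaks. Like peaks were near these values: other gene-boundary peaks had a median level of 440, and other peaks holding an annotated start a median width of 1386 bp. The strongest 5 were Rpl41 (1898), Rps29 (1318), Rps19 (1179), Rpl13a (1121) and Rpl27 (1115). Per kilobase of peak, Rpl13a was highest of these 5 at 1137 normalized reads and Rpl41 lowest at 748. The weakest 5, from Rps9 peak 2 at 29.8 to Rpl12 peak 3 at 91.4, all lay away from the start, with the second peaks of Rpl22, Rpl37a and Rps4x between them. Peaks of a gene are numbered from the strongest.

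From the lowest to the highest of the 21 group means, the median peak spanned 0.57 on the log2 scale. Other peaks that hold a gene boundary spanned 0.59 (9928 peaks) and all peaks 1.32. Of the 83 peaks, 75 varied less than 2-fold between groups. Among the 8 that varied by 2-fold or more, 7 lay away from the start and the other was Rpl5. The highest group was an aged Zfp219 group for 50 peaks, Ttad for 29 of them, and the lowest was a young group for 54. Young Dusp5 Tprog was the lowest for 17 peaks and young OTC Ttran for 11. These counts were not made for other peaks. Other gene-boundary peaks, as a median ratio to their mean over libraries, were also highest in aged Zfp219 Ttad (1.08 and 1.10). They were lowest in young Dusp5 Ttran replicate 1 (0.934). The pattern is therefore not particular to ribosomal protein gene peaks.

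The libraries were also placed by the median deviation of the 83 peaks from their own mean over all libraries (log2). The group mean was 0.18 in aged Zfp219 Ttad, 0.14 in Tterm, 0.12 in Ttran and 0.067 in Tprog. In aged OTC it was 0.049, 0.039, -0.054 and 0.0071 in the same order. The lowest groups were young Dusp5 Tprog at -0.14 and young OTC Ttran at -0.13. Other gene-boundary peaks were at 0.13 in aged Zfp219 Ttad and -0.057 in young OTC Ttran. Together the 83 peaks took 0.312% to 0.382% of each library's normalized reads.

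**Figure D1:**
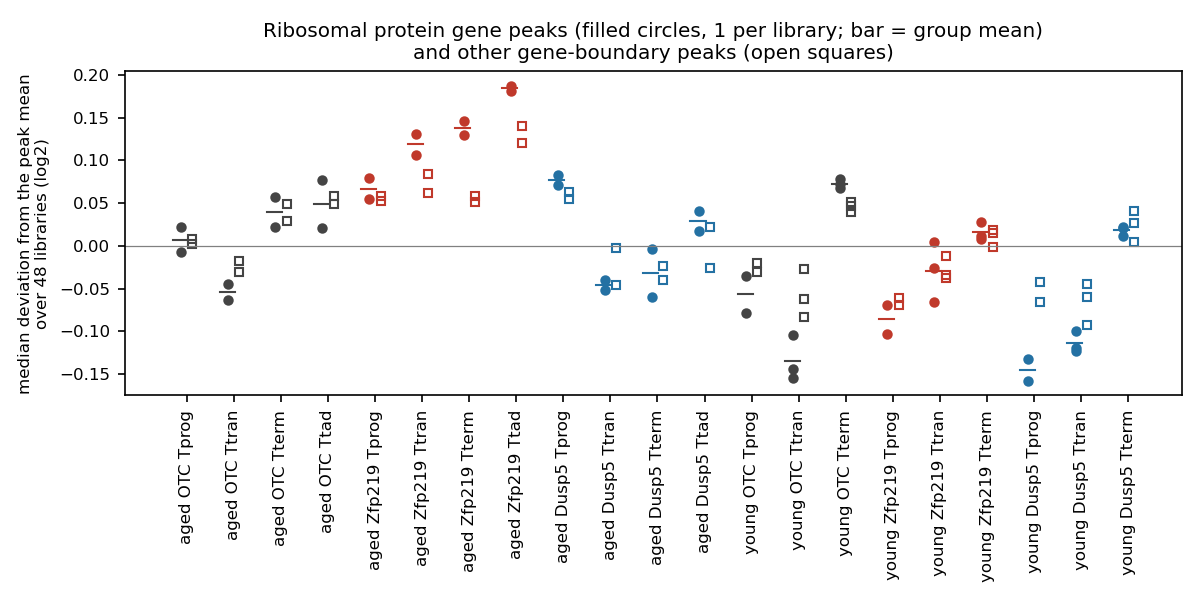
Median log2 deviation of the 83 ribosomal protein gene peaks (filled circles, 1 per library, bar at the group mean) and of 9928 other gene-boundary peaks (open squares), in each of the 21 groups; dark points mark OTC, red Zfp219 and blue Dusp5. The aged Zfp219 Ttad libraries lie highest, at a group mean of 0.18, and young Dusp5 Tprog lowest, at -0.14.

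**Figure D2:**
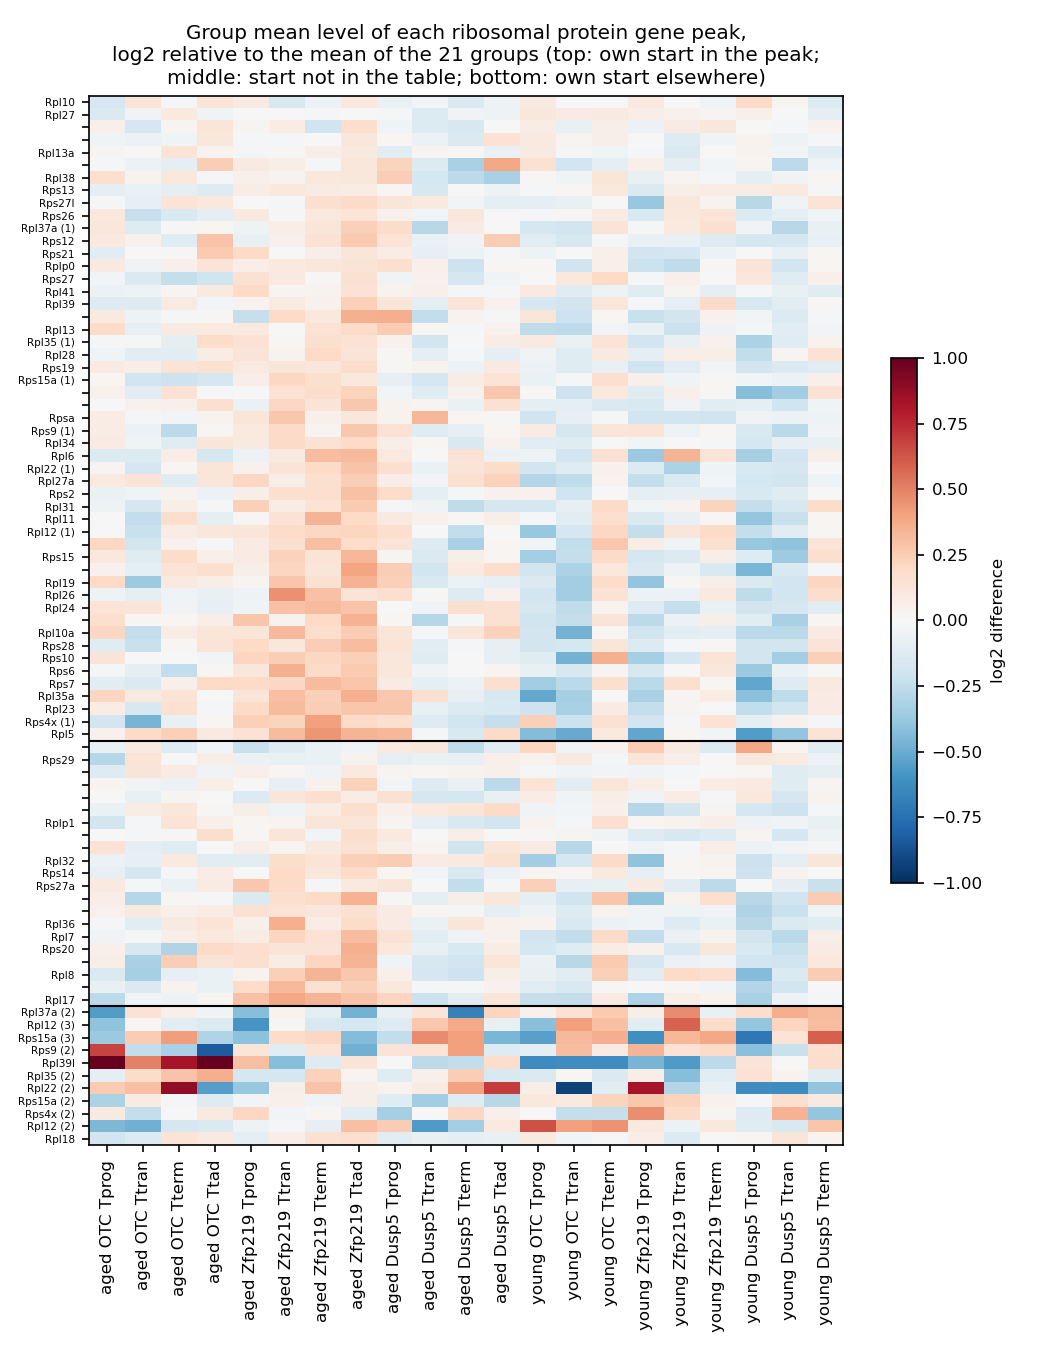
Group mean of each of the 83 peaks on the log2(value + 1) scale, relative to that peak's mean over the 21 groups; colours stop at 1 and -1, and genes named in the text are labelled. Lines separate the 51 peaks that hold their own start (top), the 21 without a start in the table (middle) and the 11 away from the start (bottom), where Rpl39l stands out in the aged OTC groups.

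The Zfp219 guide was compared with OTC in aged hosts, averaged over the 4 states. Of the 83 peaks, 31 were called (limma, adjusted p under 0.05 over all 53868 peaks), 30 higher and 1 lower with Zfp219. Over all peaks 25.8% were called, 12.1% higher and 13.7% lower. Of the 9928 other gene-boundary peaks 27.9% were called, 2098 higher and 674 lower, so these too mostly rose. The median log2 fold change was 0.13 for ribosomal protein gene peaks, 0.066 for other gene-boundary peaks and 0.0064 for all peaks. The rises were small, from 0.097 to 0.44 with a median of 0.21. By subunit, 15 of 33 peaks of the 40S and 15 of 50 of the 60S rose. By position, 23 of the 51 peaks with their own start and 7 of the 21 without a start in the table rose, and none of the 11 away from the start did. Of all 83 peaks, 35 had a positive fold change in all 4 states. Among the 30 it was 26, with 4 more positive in 3 states. The 30 were picked by the mean of these same 4 states, so mostly positive signs were likely from the start. Signs by state were not counted for other peaks. Outside the 10 largest they included Rpl10a, Rpl11, Rpl12 peak 1, Rpl19, Rpl22 peak 1, Rpl23, Rpl28, Rpl31, Rpl34, Rpl41, Rpl7, Rps10, Rps13, Rps14, Rps2, Rps20, Rps26, Rps27 and Rps9 peak 1, with values from 0.097 to 0.25.

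Scaling the libraries on the other gene-boundary peaks, which themselves moved, left 15 calls, 13 higher and 2 lower. These 13 were all among the 30, and included Rps2, Rps4x, Rps6, Rps7, Rps15a, Rps20, Rps27, Rps28, Rpl8, Rpl17, Rpl26 and Rpl31. Under that scaling the median of all peaks went from 0.0064 to -0.053. The shares of all peaks called in this text belong to the unscaled fit, and the share under this scaling is not given. Reads in peaks were 8059981 to 14780826 in the aged OTC libraries and 9160914 to 16159054 in the aged Zfp219 libraries. Summed levels in these 2 sets were 987 to 1295 and 719.5 to 1160 for melanoma genes, 701 to 972 and 684 to 893 for myeloid genes, 285 to 523 and 299 to 484 for the B cell gene, and 4.93 to 33.1 and 0 to 14.3 for the NK gene. Of the 4 melanoma-list peaks, 3 were called lower with Zfp219. Their part in the result was not tested.

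Among 40S genes, the largest rise was at the stronger peak of Rps4x, an X-linked 40S protein (chrX:102188736-102189773). The lowest, median and highest library were 104, 143 and 181 normalized reads in OTC and 171, 195 and 241 in Zfp219. In each of the 4 states both Zfp219 libraries were above both OTC libraries, and the log2 fold change was 0.44 (SE 0.10, adjusted p = 0.000595). At Rps6 (chr4:86856503-86858038), whose protein is the 40S substrate of S6 kinase downstream of mTOR, the same values were 488, 572 and 610.3 in OTC and 608, 712 and 785 in Zfp219. The 2 sets overlapped by 1 Zfp219 Tprog library, and in the other 3 states both Zfp219 libraries were higher. Its log2 fold change was 0.32 (SE 0.06, adjusted p = 6.77e-06). Rps15a peak 1, Rps28 and Rps7 had log2 fold changes of 0.27, 0.27 and 0.25; Rps15a and Rps28 encode 40S proteins, and Rps7 is also known for binding Mdm2.

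Among 60S genes, Rpl17, a protein near the exit of the peptide tunnel, rose most. Its libraries had 252, 347 and 402 in OTC and 402, 458 and 487 in Zfp219 (lowest, median, highest), with no overlap within any state. The log2 fold change was 0.41 (SE 0.07, adjusted p = 2.89e-06). Rpl8 (chr15:76903938-76905049), which lies close to the peptidyl transferase centre, had 228, 279.9 and 308 in OTC and 291, 361 and 408 in Zfp219, a log2 change of 0.38 (SE 0.07, adjusted p = 1.48e-05). The 2 Zfp219 libraries were above both OTC libraries in 3 of 4 states. Rpl26, whose protein also binds the p53 messenger RNA, went from 342 ± 35.3 (SD, n = 8) to 417 ± 63.5 (SD, n = 8). Each n counts the libraries of all 4 states, so these SDs include differences between states. The log2 change at Rpl26 was 0.28 (SE 0.07, adjusted p = 0.00162), with no overlap in 2 of 4 states. Rpl6, another 60S gene, had 0.26 and lost its call when scaled on gene-boundary peaks (adjusted p = 0.0554). The 11 largest changes, Rpl39l included, stayed called when any 1 of the 16 libraries was left out.

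**Figure D3:**
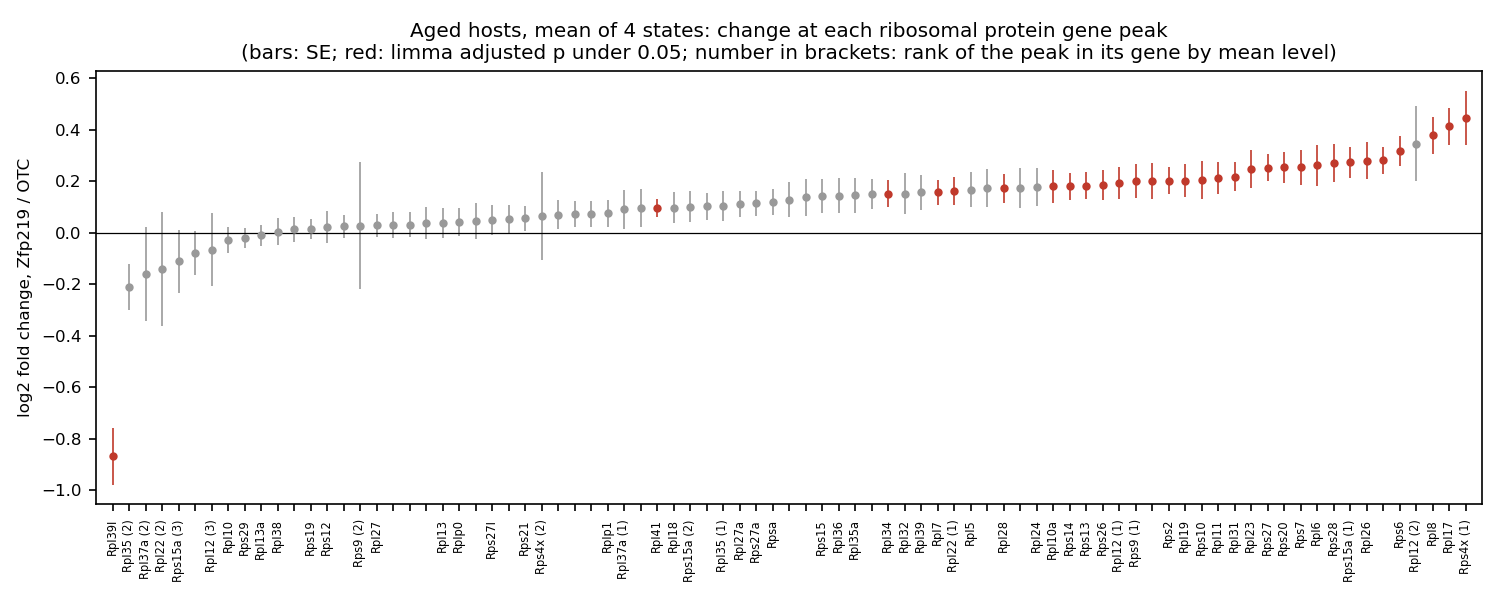
Log2 fold change of Zfp219 against OTC in aged hosts, averaged over 4 states, for each of the 83 peaks in ascending order, with its SE and labels for genes named in the text; red marks an adjusted p under 0.05. Rpl39l is the only called fall at -0.87, and the 30 called rises reach 0.44 at Rps4x.

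The motifs printed above were set beside these calls, as counts with no test. Of the 51 genes with their start in a peak, 23 rose. The CGCG palindrome was in 5 of these 23 (Rps6, Rps28, Rpl10a, Rpl12, Rpl26) and in 1 of the other 28 (Rps19). CCGGAAG was in 12 of 23 and 9 of 28, AAGATGG in 4 and 3, GGGCGG in 12 and 20, CCAAT in 5 and 14, TATAAA in 2 and 3. A pyrimidine start was in 5 of 23 and 6 of 28.

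By state, most peaks were called in Ttran. There 17 peaks were called, 15 higher and 2 lower (14.2% of all peaks called, 5.92% higher and 8.29% lower). The median log2 fold change was 0.21 against 0.10 for the 9928 other gene-boundary peaks, of which 1204 were called higher and 462 lower. Rpl19 (chr11:98026279-98027732), a 60S protein that takes part in a bridge between the subunits, had 314 and 308 normalized reads in OTC Ttran and 496 and 477 in Zfp219 Ttran, a log2 change of 0.64 (SE 0.13, adjusted p = 7.84e-05). The OTC Ttran pair was low for this gene, since OTC libraries of the other aged states had 399 to 487. Rps4x had the highest value, 0.69, which was not called without 3 of the 4 libraries in turn. Rpl10a and Rpl8 had 0.57 and 0.57, and Rpl26, Rpl23, Rpl36 and Rps6 had values from 0.45 to 0.55. The 2 falls were Rpl39l and Rpl10 (-0.30), the gene of a 60S protein that joins late in subunit assembly. Leaving out 1 of the 4 libraries left 9 to 11 calls, and Rpl19, Rps6 and Rpl39l kept theirs each time. Scaled on gene-boundary peaks, 11 were called, 8 higher and 3 lower.

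Tprog had 2 calls, both higher (2.56% of all peaks called, 1.11% higher and 1.45% lower). Rpl17 had 349 and 252 normalized reads in OTC Tprog and 483 and 402 in Zfp219 Tprog, a log2 change of 0.57 (SE 0.14, adjusted p = 0.0121). Without OTC Tprog replicate 2, the lowest of the 4, it was not called (adjusted p = 0.422), nor without Zfp219 Tprog replicate 1 (adjusted p = 0.28). Rpl41, the shortest ribosomal protein, had 0.26, and lost its call without 3 of the 4 libraries in turn. With gene-boundary scaling, 1 peak was higher and 1 lower. Tterm had 3 calls, Rps6 (0.44) and Rps20 (0.44) higher and Rpl39l lower (3.57% of all peaks called, 1.06% higher and 2.51% lower). Rps6 had 488 and 521 in OTC Tterm and 665 and 708 in Zfp219 Tterm. Without OTC Tterm replicate 1, or without either Zfp219 Tterm library, none of the 83 was called there. Ttad had 4 calls (8.23% of all peaks called, 3.66% higher and 4.56% lower), with Rpl6 (0.51), Rps27 (0.36) and Rps2 (0.35) higher and Rpl39l lower. Scaled on gene-boundary peaks only Rpl39l stayed, and leaving out 1 library left 0 to 3 calls; with Zfp219 Ttad replicate 2 left out there were 0. Whether the states differ in this effect was not tested.

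In young hosts the Zfp219 guide was compared with OTC over Tprog, Ttran and Tterm. There 2 peaks were called, Rpl35a higher (0.21, SE 0.07, adjusted p = 0.0479) and Rpl12 peak 2 lower (-0.45, SE 0.15, adjusted p = 0.0466), with 7.07% of all peaks called, 1.92% higher and 5.15% lower. The median log2 fold change was 0.0049. The 30 peaks that rose in aged hosts had young fold changes from -0.09 to 0.13 with a median of 0.024, and 0 of them were called. Both young calls were lost when single libraries were left out, for Rpl35a in 13 of 16 cases and for Rpl12 peak 2 in 12 of 16. Rpl12 peak 2 was also lost when scaled on gene-boundary peaks.

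The difference itself was tested as the aged effect minus the young effect over these 3 states. It passed for 12 peaks, 11 with a higher effect in aged hosts and 1 with a lower one, with 9.11% of all peaks called, 4.09% higher and 5.01% lower. Of the 9928 other gene-boundary peaks, 612 passed with a higher and 175 with a lower effect. Of the 11, 7 were among the 30 rises in aged hosts, a comparison that uses the same aged libraries. The OTC libraries are also those of the comparison of aged with young OTC cells. Rps4x, Rps27, Rpl8, Rps14 and Rpl12 peak 2, all among the 11, were lower in aged than young OTC. These are therefore not separate results. Rps4x had the largest difference among start peaks at 0.62 (SE 0.16, adjusted p = 0.00686); its young libraries were 122, 162 and 231 in OTC and 113, 171 and 183 in Zfp219 (lowest, median, highest). Rpl17 differed by 0.41 (SE 0.11, adjusted p = 0.0084), with young libraries at 285, 329 and 402 and 280.5, 345 and 434. The young OTC and Zfp219 libraries overlapped for both genes. Rps27, which differed by 0.31, encodes a zinc-finger protein of the 40S. Scaled on gene-boundary peaks 6 passed, 4 higher (Rps4x, Rpl17, Rps27 and Rpl12 peak 2) and 2 lower. Leaving out 1 library gave 6 to 15, the lowest without aged OTC Tterm replicate 1. Sequencing set and pools of mice cannot be told apart from host age here.

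**Figure D4:**
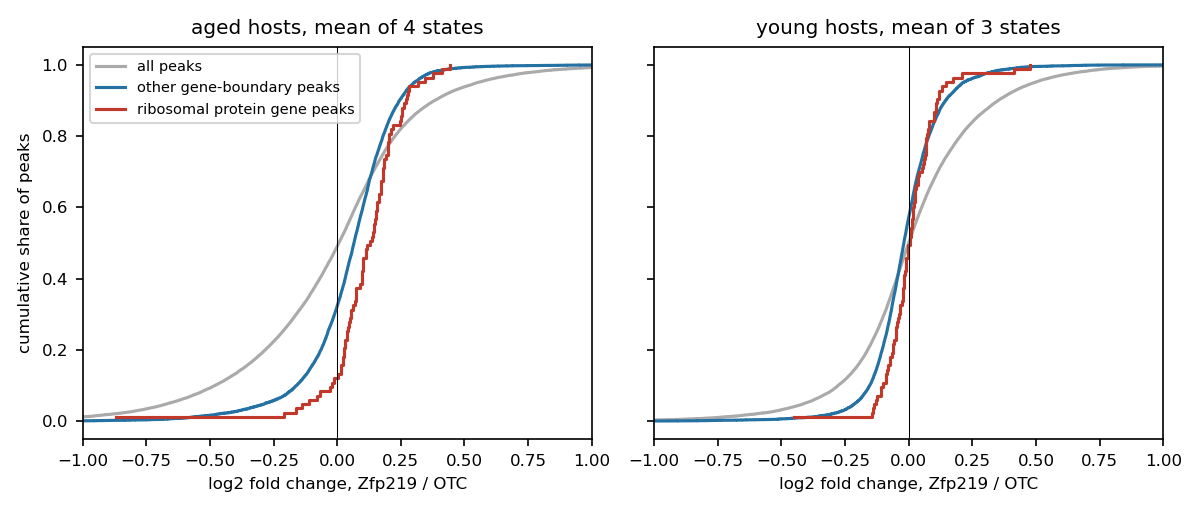
Cumulative share of peaks by log2 fold change of Zfp219 against OTC, for the 83 ribosomal protein gene peaks (red), 9928 other gene-boundary peaks (blue) and all peaks (grey); the axis stops at 1 and -1. In aged hosts (left) the medians are 0.13, 0.066 and 0.0064, and in young hosts (right) 0.0049, -0.019 and -0.00049.

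The Dusp5 guide moved few of these peaks. In aged hosts 2 of 83 were called over the mean of 4 states, both lower, with 12.2% of all peaks called, 4.35% higher and 7.87% lower. They were Rpl39l and Rpl38 (-0.20, SE 0.05, adjusted p = 0.00377), a 60S protein known for its part in translating Hox messenger RNAs. Rpl38 libraries had 659, 774 and 832 in OTC and 555, 641 and 862 in Dusp5 (lowest, median, highest). The median log2 fold change was 0.0071. In young hosts 4 were called, 1 higher and 3 lower (3.82% of all peaks called, 1.8% higher and 2.02% lower). Rpl39l was higher (0.72, SE 0.11, adjusted p = 4.2e-06); Rpl11 (-0.21), Rpl35 peak 1 (-0.19) and Rpl12 peak 2 (-0.48) were lower. Rpl11 is a 60S protein known for binding Mdm2. When scaled on gene-boundary peaks only Rpl39l stayed, and the 3 falls were lost in 9 (Rpl11) or 13 of the 16 cases with 1 library left out. Dusp5 and Zfp219 share their OTC libraries in each age. The age difference in the Dusp5 effect passed for 1 peak, Rpl39l, with 4% of all peaks called, 1.27% higher and 2.73% lower.

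Sorted states were compared within OTC cells. In young hosts 17 of 83 peaks differed between Tprog and Tterm, 16 lower and 1 higher in Tprog, with 26.5% of all peaks called, 13.9% higher and 12.6% lower. The median log2 fold change was -0.11, against -0.077 for other gene-boundary peaks and 0.0072 for all peaks. Of the 9928 other gene-boundary peaks, 1634 were called lower and 803 higher. Rpl5, which binds 5S ribosomal RNA, had 331 and 300.3 normalized reads in Tprog and 475, 427 and 467 in Tterm, with no overlap, a log2 change of -0.53 (SE 0.12, adjusted p = 0.000482). Young OTC Ttran was as low as Tprog at this peak, with 307, 314 and 283. Rpl12 peak 1, at the base of the ribosomal stalk, had 323 and 312 in Tprog and 463, 502 and 467 in Tterm, a log2 change of -0.58 (SE 0.12, adjusted p = 3.31e-05). Rps15, Rpl32, Rpl35a, Rps7, Rps10 and Rpl7 had changes from -0.54 to -0.38. The only rise was Rps27a (0.31), whose product is a fusion of ubiquitin with a 40S protein. Scaled on gene-boundary peaks 14 were called, 11 lower and 3 higher, and leaving out 1 library left 12 to 17. Rps27a (without Tprog replicate 2, adjusted p = 0.0974), Rps7 (without the same library, 0.0603) and Rps10 (without Tprog replicate 1, 0.126) each lost their call.

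In aged OTC cells 6 peaks differed between Tprog and Tterm, 5 lower and 1 higher (20.1% of all peaks called, 8.88% higher and 11.2% lower). Rps29, a small zinc-finger protein of the 40S, had 1075 and 1082 normalized reads in Tprog and 1326 and 1296 in Tterm, a log2 change of -0.28 (SE 0.08, adjusted p = 0.00599). Its Tprog libraries were the lowest pair of the aged OTC groups. Rplp1, an acidic stalk protein, had -0.32 and Rpl27 -0.25. Rpl18 had -0.33 and Rps15a peak 3 -0.77, both at peaks away from the start. Rps20 was higher (0.36, SE 0.12, adjusted p = 0.0204), at 529.9 and 505 against 363 and 446. Each of the 6 lost its call without at least 1 of the 4 libraries, and 1 to 4 calls remained. Without OTC Tterm replicate 1, adjusted p was 0.0612 for Rps29 and 0.393 for Rps20. With gene-boundary scaling 3 were lower and 3 higher. Of the 16 peaks lower in young Tprog, 10 had a negative fold change in aged cells and 1 was called lower there, Rps15a peak 3. The age difference passed for Rps20 (0.62, SE 0.16, adjusted p = 0.0186) and Rpl27a (0.55, SE 0.14, adjusted p = 0.0131), with 2.32% of all peaks called, 0.512% higher and 1.81% lower. Leaving out 1 library left 0 to 2 of these calls. Rps20 lost its call without aged Tprog replicate 1 (adjusted p = 0.102), aged Tterm replicate 1 (0.222), young Tprog replicate 1 (0.0821) or young Tprog replicate 2 (0.052). Rpl27a lost it without aged Tprog replicate 2 (adjusted p = 0.0604), aged Tterm replicate 2 (0.0727) or young Tprog replicate 2 (0.0863).

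The other aged OTC states were compared in pairs. Between Ttran and Tterm 3 were called, all lower in Ttran, with Rpl19 at -0.46 and Rpl11 at -0.42 (3.22% of all peaks called, 1.87% higher and 1.35% lower). Rpl19 and Rpl11 lost their call without any 1 of the 4 libraries. Between Ttad and Tterm, Rps20 (0.49) and Rps12 (0.41) were higher and Rpl22 peak 2 lower (-1.67) in Ttad (7.28% of all peaks called, 3.02% higher and 4.26% lower). No call remained there without Tterm replicate 1, the library with the lowest Rps20 value of the 4. Between Ttad and Tprog, Rps21 (0.37) and Rps29 (0.35, SE 0.08, adjusted p = 0.00236) were higher in Ttad (6.55% of all peaks called, 3.82% higher and 2.73% lower). Rps29 had 1357 and 1386 in Ttad, and its call stayed whichever library was left out. Rps21 lost its call without Tprog replicate 1 (adjusted p = 0.106) or Ttad replicate 1 (0.0564).

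Aged and young OTC cells were compared over Tprog, Ttran and Tterm. Of the 83 peaks 19 differed, 12 higher and 7 lower in aged hosts, with 36.5% of all peaks called, 17.3% higher and 19.1% lower. The median log2 fold change was 0.029. Among start peaks Rpl5 rose most, with 419, 486 and 511 normalized reads in aged libraries and 283, 323 and 475 in young ones (lowest, median, highest), a log2 change of 0.44 (SE 0.07, adjusted p = 5.83e-07). The aged and young libraries did not overlap within any of the 3 states, and the 3 young Tterm libraries were above the other 5 young ones. Rpl35a, mutated in some families with Diamond-Blackfan anaemia, went from 353 ± 57.7 (SD, n = 8) in young to 463 ± 47.8 (SD, n = 6) in aged cells. Each n counts libraries of all 3 states, so these SDs include differences between states. The log2 change at Rpl35a was 0.43 (SE 0.07, adjusted p = 1.21e-06). Rpl13, Rpl10a, Rpl27a, Rpl24, Rps15 and Rps19 were higher by 0.18 to 0.24. Of the falls at start peaks, Rps4x had -0.29, Rps27 -0.24 and Rpl27 -0.13. Rpl8 (-0.21) and Rps14 (-0.14) were lower at peaks without a start in the table. Scaled on gene-boundary peaks 18 were called, 8 higher and 10 lower.

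The calls at Rpl39l, Rpl5, Rpl35a, Rpl13, Rpl27a, Rps19, Rps27, Rpl22 peak 2, Rpl12 peak 2 and Rps15a peak 2 held when any 1 of the 14 libraries was left out. Rps4x, Rpl8, Rps14, Rpl27, Rpl24 and Rps15 each lost their call in 5 to 11 of the 14 cases, and Rpl10a without aged OTC Ttran replicate 2 (adjusted p = 0.0858). The lowest count, 12, came without that same library.

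Rpl39l is a paralog of Rpl39, at the peptide exit tunnel, and is known for expression in the testis. Its peak (chr16:10170931-10173012) lies in the gene body away from the annotated start. Normalized reads in aged OTC were 283 and 323 in Tprog, 219.6 and 207 in Ttran, 273 and 258 in Tterm and 305 and 293 in Ttad. Rpl39l was the only one of the 83 called in both aged guide comparisons. All 8 aged OTC libraries were above every library of the other 5 sets of guide and age. The young OTC libraries ran from 85.7 to 115, young Zfp219 from 68.6 to 154 and young Dusp5 from 132 to 179. Aged Zfp219 ran from 107 to 189 and aged Dusp5 from 117 to 170.0. The log2 fold change of aged over young OTC was 1.41 (SE 0.12, adjusted p = 9.77e-18). With Zfp219 it was -0.87 (SE 0.11, adjusted p = 6.47e-10) in aged hosts and with Dusp5 -0.92 (SE 0.11, adjusted p = 6.03e-10), and these comparisons share their 8 OTC libraries.

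**Figure D5:**
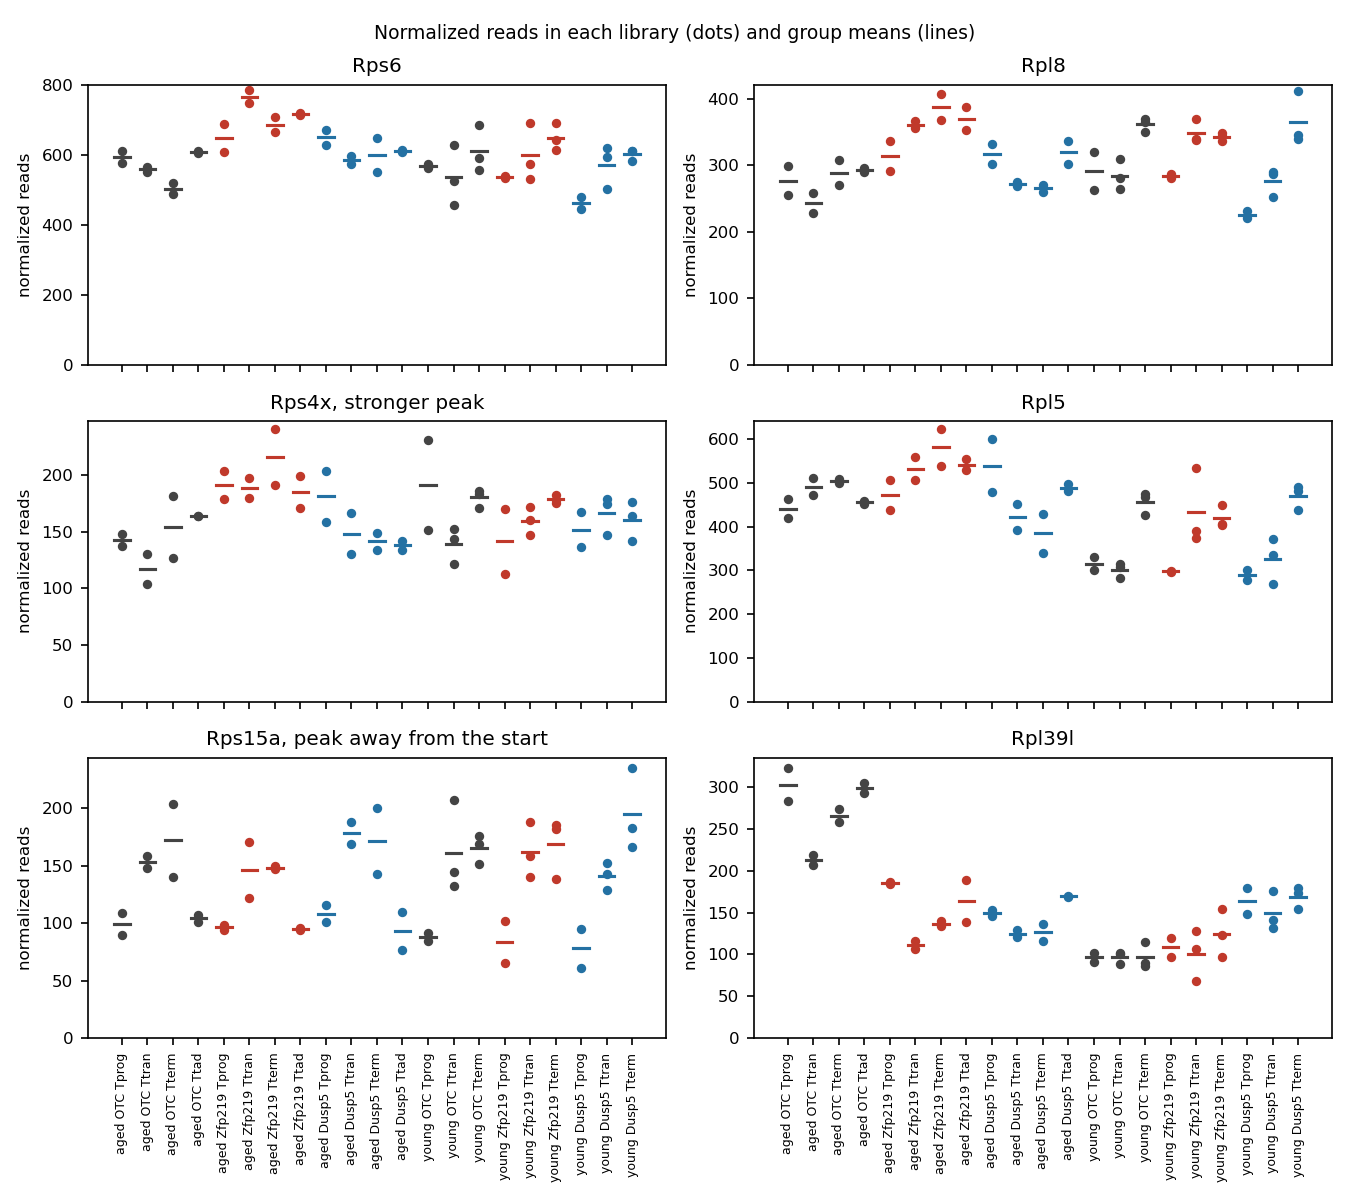
Normalized reads of 6 peaks in each library (dots) with the group mean (line), for the 21 groups; dark points mark OTC, red Zfp219 and blue Dusp5, and each axis starts at 0. Rps6, Rpl8 and Rps4x are higher in aged Zfp219 than in aged OTC, Rpl5 is low in young OTC Tprog and Ttran, Rps15a peak 3 is low in Tprog and Ttad, and Rpl39l is high in the 8 aged OTC libraries.

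Other peaks away from the start are given beside the start peak of the same gene. Rps15a peak 1 holds the start (chr7:118115472-118116872), and peak 3 lies at the other boundary of the gene (chr7:118103914-118105551). Peak 3 had 61.1 to 115 normalized reads in the 18 Tprog and Ttad libraries and 122 to 235 in the 30 Ttran and Tterm libraries of all guides and ages. These sets did not overlap. Peak 3 was not called for Ttad against Tterm in aged OTC (log2 fold change -0.69, limma adjusted p = 0.0624). Its log2 fold change of Tprog against Tterm was -0.91 (SE 0.22, adjusted p = 0.000813) in young and -0.77 (SE 0.24, adjusted p = 0.0139) in aged OTC, the latter lost without Tterm replicate 1 (adjusted p = 0.3) or Tprog replicate 2 (0.158). At peak 1 those fold changes were -0.23 and 0.23, neither called. Rps15a peak 2 (chr7:118113308-118114296) was lower in aged than young OTC (-0.22, SE 0.07, adjusted p = 0.00476).

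Rpl12 has its start in peak 1 (chr2:32961368-32962439) and weaker peaks 2 (chr2:32962840-32963303) and 3 (chr2:32963431-32963852). Peak 2 had 55.5, 69.8 and 99.1 normalized reads in aged OTC over Tprog, Ttran and Tterm, and young OTC had 89.1, 131 and 163 over the same states (lowest, median, highest), a log2 change of -0.87 (SE 0.16, adjusted p = 4.16e-06). At peak 1 it was 0.063, not called. Peak 3 was lower in young OTC Tprog than Tterm (-0.71, SE 0.26, adjusted p = 0.0309), a call lost without any of the 5 libraries except Tterm replicate 1, and when scaled on gene-boundary peaks. Rpl22, whose protein also acts outside the ribosome in T cell development, has a start peak (chr4:152325313-152326768) and a weak peak 2 (chr4:152332861-152333524). Over Tprog, Ttran and Tterm, peak 2 had 39, 60.1 and 91.5 in aged OTC against 15.8, 33.4 and 52.2 in young, overlapping, with a log2 change of 0.81 (SE 0.24, adjusted p = 0.00505). Its fall in aged OTC Ttad (43.6 and 12.3) against Tterm (91.5 and 64.2) was not called without Ttad replicate 2 (adjusted p = 0.435) or Tterm replicate 1 (0.15).

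The remaining members named for their roles were called in few comparisons. Rplp0, the scaffold of the stalk, ran from 531 to 857 normalized reads over the 48 libraries and Rplp1 from 571 to 770.0. Rplp0 was called in 0 of the 17 comparisons and Rplp1 in 1. Rpsa, the 40S protein also known as the laminin receptor, ran from 565 to 986, and its highest library was an aged Dusp5 Ttran one. Rps27l, a paralog of Rps27 known as a p53 target, ran from 419 to 753. Neither Rpsa nor Rps27l was called in any comparison. Rps27a ran from 628 to 992, and in each of the 6 sets of guide and age its mean was higher in Tprog than in Tterm; the test was made for OTC only.

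Other genes of the pathway were counted from fixed lists, with every peak assigned to a listed gene. In aged Zfp219 against OTC (mean of 4 states), 12 of 29 peaks of ribosome biogenesis genes such as Ncl, Fbl, Nop56 and the RNA polymerase I subunit genes were called, all higher, with a median log2 fold change of 0.17. Of 86 peaks of mitochondrial ribosomal protein genes, which serve a separate ribosome, 25 were called, 23 higher and 2 lower, with a median of 0.097. Translation factors and other genes of the TOP class, such as Eef1a1, Eef2 and Tpt1, had 8 of 29 called, 6 higher and 2 lower (median 0.038). Regulators, among them Myc, Mtor, Larp1, Tsc1, Gabpa and Yy1, had 18 of 57 called, 11 higher and 7 lower (median -0.0054). The background in this comparison was 25.8% of all peaks, 12.1% higher and 13.7% lower. Of the 9928 other gene-boundary peaks, 2098 were called higher and 674 lower. In young hosts the same lists had 1 of 29, 5 of 86, 2 of 29 and 5 of 57 called, with 7.07% of all peaks called, 1.92% higher and 5.15% lower. For young OTC Tprog against Tterm, mitochondrial ribosomal protein genes had 14 of 86 called, 13 lower, and TOP class genes 7 of 29, 6 lower (26.5% of all peaks called, 13.9% higher and 12.6% lower). For aged against young OTC, mitochondrial ribosomal protein genes had 7 higher and 16 lower of 86, and TOP class genes 6 higher and 1 lower of 29 (36.5% of all peaks called, 17.3% higher and 19.1% lower).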

How the data were processed

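ATAC-seq libraries numbered 48 in 21 groups taken from the sample titles. The deposited table gives, per peak and library, a normalized signal that the authors made by dividing read counts by a size factor, as the values show: within a library all values are multiples of the worth of 1 read, which gave back whole reads for 100% of values (tolerance 0.01 reads). The submitters' processing notes name Bowtie2 2.2.9, Picard 2.8.0, SAMtools 1.3.1, MACS2 2.1.1, DESeq2 1.28.1 and mm10; their settings, the duplicate rule and any shift of insertion sites are not given in the sources used here. The table has a value for every peak in every library.

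Genes and sequences came from RefSeq GRCm38.p6 tables. The main test was limma 3.58.1 (R 4.3.3) on log2(value + 1), fitted to all 48 libraries (lmFit, then eBayes with trend) with 17 contrasts, Benjamini-Hochberg over 53868 peaks and a threshold of 0.05. Changes of weak peaks come out too small on this scale. Tried instead were a pseudocount of 8, a table without the weakest 25% of peaks, scaling on 9860 other gene-boundary peaks, edgeR 4.0.16 with TMM factors on the recovered reads, a replicate block, and leaving out each library; where that left 1 library in a group, it was assumed to vary like the others. Replicates are pools of mice, and p-values measure the spread between replicate libraries. Between replicates of a group, chi-square per degree of freedom over all peaks ran from 2.79 to 4.53, more than counting of reads alone would give. How much of that spread lies between mice was not tested, so p-values may be too small for a spread between mice. Fits were tried on simulated data with larger changes than the rises with Zfp219 in aged hosts, and without differences between mice. That trial does not cover changes as small as these.

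Members, lists and comparisons were chosen with earlier results of these data known. Named were up to 10 called peaks per direction and comparison with the largest change, the 5 strongest and 5 weakest peaks, genes with several peaks, and stalk, fusion and paralogous members; Rps2 and other peaks named only as part of a count were named after their values were seen. A few members are counted but not reported by name here.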

Additional observations from a re-analysis of the deposited data

Results flagged for a closer look

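The effect of a guide or a state differed between aged and young hosts at 15 combinations of a peak and a comparison, where limma tested that difference (adjusted p under 0.05). For Zfp219 against OTC over Tprog, Ttran and Tterm, the difference (aged effect minus young effect, log2) was 0.26 at Rps21, 0.26 at Rps14, 0.27 at Rps27a, 0.28 at Rpl35 peak 1, 0.29 at Rps6, 0.29 at Rps15a peak 1, 0.31 at Rps27, 0.33 at Rpl8, 0.41 at Rpl17, 0.62 at Rps4x peak 1 and 0.76 at Rpl12 peak 2. At Rpl39l it was -1.04. For Dusp5 against OTC the difference at Rpl39l was -1.68. For Tprog against Tterm in OTC cells it was 0.55 at Rpl27a and 0.62 at Rps20, with 0 to 2 calls when 1 library was left out. Sequencing set, pools of mice and host age cannot be told apart in any of these. The Zfp219 and Dusp5 differences use the same aged and young OTC libraries, as does the comparison of aged with young OTC.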

How the results depend on the processing

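Of 96 named results, all kept their direction under every alternative. These results were calls of the main fit on the same libraries, so a change of direction was unlikely from the start. With a pseudocount of 8, without the weakest 25% of peaks (which drops 1 of the 83) and by edgeR all 96 kept their call. Scaling on other gene-boundary peaks ended 24 of the 96 calls. Counts of called ribosomal protein gene peaks then moved from 31 to 15 (Zfp219, aged mean), 17 to 11 (Ttran), 4 to 1 (Ttad), 2 to 1 (young mean), 12 to 6 (age difference for Zfp219), 4 to 1 (Dusp5, young) and 3 to 1 (Ttran against Tterm). Shares of all peaks called are given for the main fit only, so these scaled counts have no background beside them. Without the weakest peaks, and by edgeR, Zfp219 in aged Tprog and in young hosts each went from 2 to 4; by edgeR the age difference for Dusp5 went from 1 to 2. Leaving out 1 library gave 25 to 32 calls for Zfp219 in aged hosts, 0 to 2 in Tprog, 9 to 11 in Ttran, 0 to 3 in Tterm, 0 to 3 in Ttad, 0 to 3 in young hosts and 6 to 15 for its age difference. For Dusp5 it gave 2 to 3 in aged hosts, 1 to 4 in young hosts and 1 to 2 for the age difference. For states it gave 1 to 4 (Tprog against Tterm, aged), 12 to 17 (young), 0 to 2 (their difference), 0 to 1 (Ttran against Tterm), 0 to 4 (Ttad against Tterm) and 1 to 3 (Ttad against Tprog), and for aged against young OTC 12 to 18. In all, 251 of 1091 named results with a library left out lost their call; fewer samples are part of that setting, and the cause of each loss was not tested otherwise. No pairing by replicate number was seen: correlations of same-numbered deviations ran from -0.018 to 0.017, with 0 pairs over 0.1. In groups of 2 libraries the deviations mirror each other, so aged replicates 1 and 2 gave the same check. The check cannot tell whether states were sorted from the same mice, as spread within single libraries can hide such pairing. The replicate block left 31 calls for Zfp219 in aged hosts and 15 in place of 19 for aged against young OTC, and ended 6 of the 96 calls: Rpl13 (adjusted p = 0.0638), Rps15 (0.0613), Rps14 (0.115), Rps4x peak 1 (0.144) and Rpl24 (0.207) for aged against young OTC, and Rpl35 peak 1 for Dusp5 in young hosts (0.0516). Reads in peaks were 5638413 to 29942755 per library, which limits the precision of weak peaks.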

Other observations

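Rpl39l had 1 other peak within 100 kb, chosen for a look after its values were seen. It lies 21.1 kb away (chr16:10192720-10193508) with a mean of 41.6 normalized reads. It was higher in aged than young OTC (limma log2 fold change 0.65, adjusted p = 0.0209) and lower with Dusp5 in aged hosts (-1.06, adjusted p = 0.000179). With Zfp219 in aged hosts the value was -0.25 (adjusted p = 0.429), not called.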
